A study of Mus musculus with 8 samples.

Results

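The genes described here are 5 genes of the molecular clock, Arntl, Npas2, Clock, Nfil3 and Cry1, out of 35896 genes listed in an RNA-sequencing table of mouse aorta. They were picked by symbol as clock genes of the Arntl phase, with results of these 8 libraries already known, so that their own levels and differences are given as a description without a test. All 5 passed the filter on low counts that left 17182 genes for testing. The aortas came from male C57BL6 mice (of the J substrain, per the methods) that were 11 weeks old at the start. The study asked whether the aortic response to angiotensin II (AngII), a vasoconstrictor peptide hormone, outlasts the hormone itself. AngII was delivered at 2.8 mg/kg per day for 2 weeks, and the aortas were collected when the infusion ended (AngII, labelled Angio 2w), 2 weeks later (AngII+2W, labelled Angio 2w+2W) or 3 weeks later (AngII+3W, labelled Angio 2w+3W). Untreated littermates of the same age served as CTRL. According to the design they were killed at each of these time points, and the labels do not say at which one the mice of each CTRL library were. Each of the 4 groups had 2 libraries, and each library held pooled aortic tissue of 2 mice, so that p-values measure only the spread between such pools. The hour of the day at which tissue was collected is in neither the labels nor the methods, so that a difference in hour and a difference between groups cannot be told apart for any gene below.

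The mammalian clock is a transcriptional feedback loop that runs in nearly every cell, including smooth muscle and endothelial cells of the vessel wall. BMAL1, the protein of Arntl, pairs with CLOCK or with its close relative NPAS2 and binds E-boxes, which switches on Per, Cry and Rev-erb (Nr1d1, Nr1d2) genes together with Dbp and its relatives. PER and CRY proteins then block the activator pair, while REV-ERB proteins repress Arntl, Npas2, Clock, Nfil3 and Cry1 through sites that they share with the activating ROR receptors. Messenger RNA of Arntl and Npas2 therefore peaks at about the opposite time of day from that of Dbp and Nr1d1. NFIL3, also called E4BP4, is a repressor that competes with DBP, TEF and HLF for D-box sites, and CRY1 is a repressor whose gene carries both E-boxes and Rev-erb sites and peaks later than the Per genes.

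Sequence around the annotated gene starts was read from RefSeq promoter windows on GRCm38.p6, which run from 250 bases before to 50 bases after each start. The 5 genes had 8 such windows, 1 each for Npas2, Nfil3 and Cry1, 2 for Arntl and 3 for Clock. Both strands were searched for CACGTG (E-box), CACGTT (E-box variant), TAGGTCA and TGGGTCA (ROR and REV-ERB sites) and TTATGTAA (D-box). The sites found in members, which were in Arntl, Nfil3 and Cry1, are shown as the clock elements present near these starts. The site of Leo1 was added after its values were seen. Leo1 was the only gene among the 26 other clock genes with windows to hold TAGGTCA, and sites of the other letters in these genes are not printed. Each line gives 30 bases on the strand of the gene, 5′ to 3′, with the letters searched (or their complement) in capitals.

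Arntl, TAGGTCA, chr7:113207530-113207559, plus strand: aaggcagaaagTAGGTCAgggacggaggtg
Nfil3, TAGGTCA read on the opposite strand, chr13:52981033-52981062, minus strand: gcgctcggaacTGACCTActaacacacatc
Leo1, TAGGTCA, chr9:75441450-75441479, plus strand: ctggagaaaacTAGGTCAcaaaagtaaagt
Cry1, CACGTG, chr10:85185097-85185126, minus strand: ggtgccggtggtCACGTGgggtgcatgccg
Cry1, CACGTT read on the opposite strand, chr10:85185116-85185145, minus strand: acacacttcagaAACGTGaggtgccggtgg

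In Arntl the site began at base 31, counting the later of both annotated starts (113207511) as 1, and the whole 30 bases lie in an untranslated part of an exon. In Nfil3 the site began 12 bases before the RefSeq start and, in the GENCODE annotation, also lies in an untranslated part of an exon. The sites of Cry1 lie upstream of the gene, 60 and 79 bases before the RefSeq start, and the printed stretches overlap at their ends while the sites do not. TAGGTCA was held by 2.61% of all 32817 mouse windows, CACGTG by 7.15% and CACGTT by 4.69%. No window of the 5 genes held TGGGTCA or TTATGTAA, which 3.98% and 0.935% of all windows held. Windows of Npas2 and Clock held none of the 5 sets of letters. These are matches of letters and not measured binding.

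Arntl encodes BMAL1, the partner of CLOCK or NPAS2 in the activator pair. The gene (ENSMUSG00000055116) lies on the plus strand of chromosome 7, from 113207465 to 113314126. Its level is given as TMM-normalized CPM, counts per 1000000 counts after scaling of the libraries to each other. Arntl had 35.7 and 26.3 CPM in the CTRL pair. AngII followed with 40.9 and 36.2, AngII+2W with 43.3 and 34.7, and AngII+3W with 8.12 and 10.1. Both AngII+3W libraries lay below all 6 others, and the 2 AngII libraries lay just above both CTRL libraries. The counts behind these values ranged from 559 to 928 in the first 3 groups and were 151 and 188 in AngII+3W. AngII+3W was 3.4-fold lower than CTRL, with a log2 fold change of -1.77 ± 0.206 (SE), and 4.23-fold lower than AngII, with a log2 fold change of -2.08 ± 0.207. An antisense gene overlaps a short stretch of 1 Arntl exon, and the strand setting of the counting is not given in the sources used here.

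Npas2 encodes the relative of CLOCK that can take its place beside BMAL1. The gene (ENSMUSG00000026077) lies on the plus strand of chromosome 1, from 39193731 to 39363236. Npas2 had 23.5 and 20.2 CPM in the CTRL pair. It had 23.2 and 23.7 CPM after the infusion (AngII), while AngII+2W stood at 27.2 and 19.2 and AngII+3W at 3.17 and 6.45. As for Arntl, both AngII+3W libraries lay below the other 6, which overlapped each other across groups. AngII+3W rested on 59 and 120 counts, and its libraries differed 2.03-fold from each other. The log2 fold change of AngII+3W was -2.18 ± 0.319 (SE) against CTRL and -2.28 ± 0.319 against AngII. Without the AngII+3W library with the fewer counts (replicate 1), the value against CTRL was -1.76, and without replicate 2 it was -2.84.

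Clock encodes the partner of BMAL1 that is present through the day in most tissues. The gene (ENSMUSG00000029238) lies on the minus strand of chromosome 5, from 76209868 to 76304792. Clock had 161 and 125 CPM in the CTRL pair. AngII followed with 157 and 140, AngII+2W with 162 and 144, and AngII+3W with 127 and 97.4. The AngII+3W libraries lay below those of AngII and AngII+2W and overlapped with CTRL. The difference was small beside those of Arntl and Npas2, with a log2 fold change of -0.35 ± 0.184 (SE) against CTRL, -0.40 ± 0.184 against AngII and -0.45 ± 0.184 against AngII+2W.

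Nfil3, the repressor of D-box genes, lies on the minus strand of chromosome 13 (ENSMUSG00000056749, 52967209 to 52981073). Nfil3 had 55.2 and 24.7 CPM in the CTRL pair. The AngII libraries gave 32.5 and 23.3, the AngII+2W libraries 26.5 and 18.9, and the AngII+3W libraries 5.21 and 7.25. Again both AngII+3W libraries were below all others, while the CTRL libraries alone differed 2.23-fold. The log2 fold change of AngII+3W was -2.68 ± 0.408 (SE) against CTRL, -2.16 ± 0.404 against AngII and -1.87 ± 0.402 against AngII+2W. Which CTRL library was used moved the first of these, from -3.15 without CTRL replicate 2 to -1.99 without CTRL replicate 1. It also set the sign of the difference between AngII and CTRL, which was -0.52 ± 0.374 with both libraries, -0.99 without CTRL replicate 2 and 0.17 without CTRL replicate 1.

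Cry1, the late repressor, lies on the minus strand of chromosome 10 (ENSMUSG00000020038, 85131700 to 85185064). Cry1 had 10.8 and 11.2 CPM in the CTRL pair. AngII followed with 9.66 and 8.81, AngII+2W with 10.9 and 9.18, and AngII+3W with 11.1 and 7.15. Its AngII+3W libraries spanned the whole range of the other groups except the highest CTRL value, and the AngII libraries lay just below those of CTRL. The log2 fold change of AngII+3W was -0.28 ± 0.225 (SE) against CTRL, -0.02 ± 0.227 against AngII and -0.14 ± 0.226 against AngII+2W. These values rest on 133 to 239 counts per library.

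**Figure D1:**
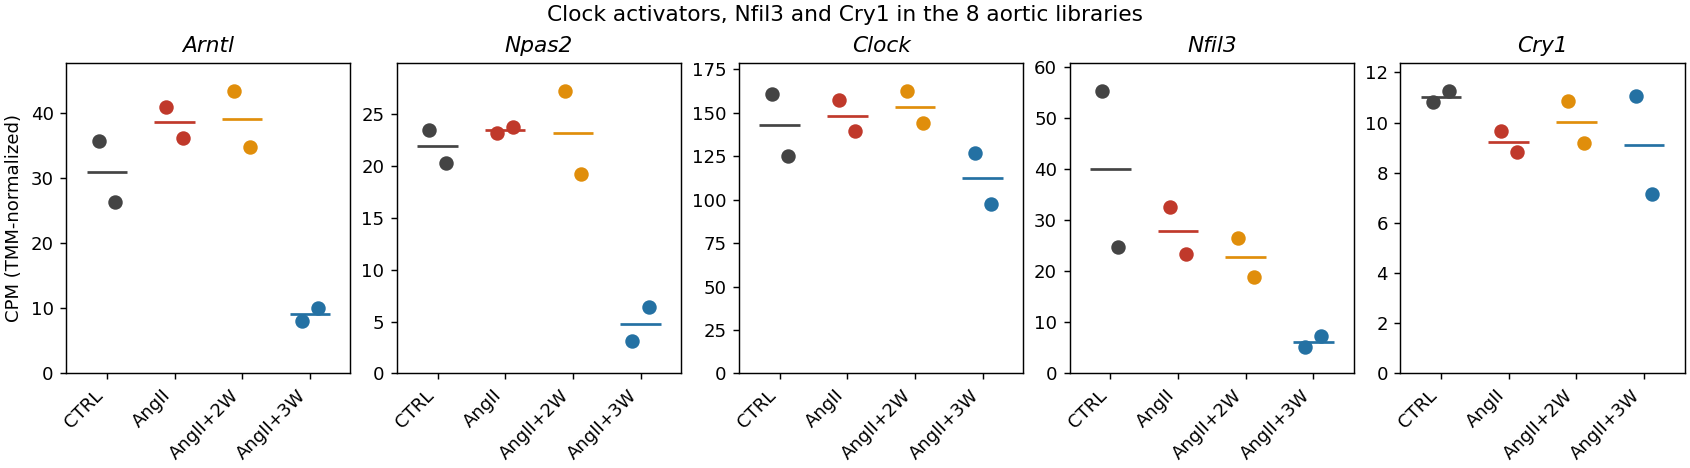
TMM-normalized CPM of the 5 genes (vertical axes from 0, 1 panel per gene) in the 8 libraries. Each point is 1 library, each line the mean of the 2 libraries of a group. The AngII+3W points of Arntl (8.12 and 10.1), Npas2 (3.17 and 6.45) and Nfil3 (5.21 and 7.25) lie below all other points of the gene, while those of Cry1 (11.1 and 7.15) spread over nearly the range of the other groups.

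Mean differences between groups before AngII+3W were small for the activators. From CTRL to AngII the log2 fold change was 0.32 ± 0.195 (SE) for Arntl, 0.10 ± 0.293 for Npas2 and 0.05 ± 0.184 for Clock. From CTRL to AngII+2W it was 0.33 ± 0.195 for Arntl, 0.09 ± 0.293 for Npas2 and 0.10 ± 0.184 for Clock. Nfil3 was at -0.81 ± 0.376 in the latter comparison, at -1.28 without CTRL replicate 2 and at -0.11 without CTRL replicate 1. Cry1 was at -0.14 ± 0.224 there. Between AngII and AngII+2W the 5 values ran from -0.29 (Nfil3) to 0.12 (Cry1). Against AngII+2W, the AngII+3W group was at -2.10 ± 0.207 for Arntl and -2.27 ± 0.319 for Npas2, so that the low level of these genes was measured 3 weeks after the infusion and not 2 weeks after it. All comparisons with CTRL share the same 2 CTRL libraries, and the 3 comparisons of AngII+3W share its 2 libraries.

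**Figure D2:**
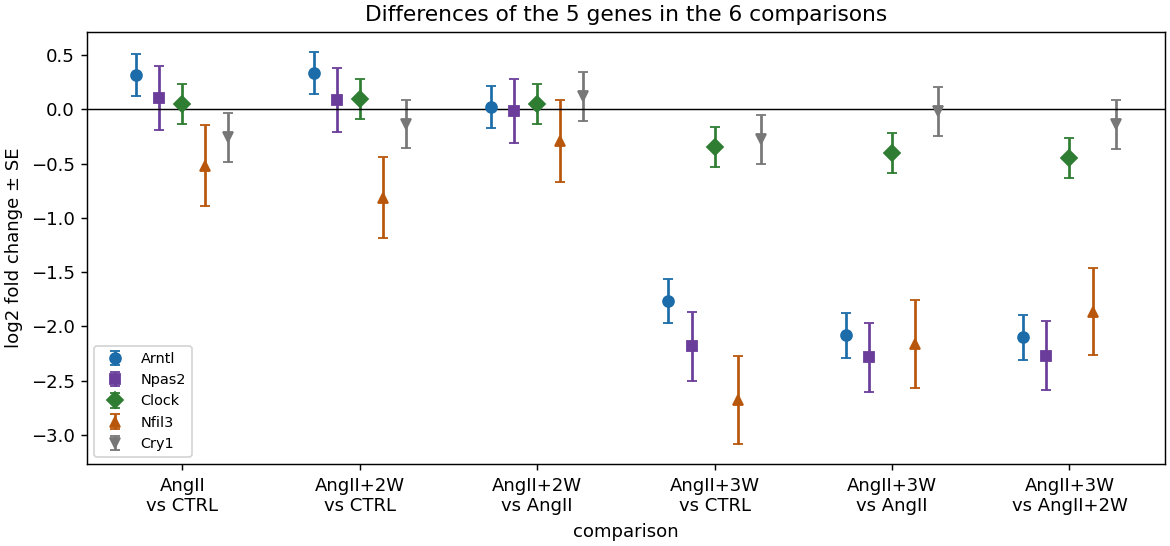
Log2 fold change (vertical axis, points) with its standard error (bars) for the 5 genes in the 6 comparisons between groups (horizontal axis). In the comparisons without AngII+3W the points lie between -0.81 and 0.33. In the 3 comparisons of AngII+3W those of Arntl, Npas2 and Nfil3 lie between -2.68 and -1.77, and those of Clock and Cry1 between -0.45 and -0.02.

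Numbers of members past an FDR of 0.05 (the Benjamini-Hochberg adjusted p over all tested genes) are given with the share of all genes, and nothing is read from them, since the choice of the 5 genes used these comparisons. In AngII+3W against AngII, 3 of 5 members passed (Arntl, Npas2 and Nfil3, all lower), where 1.61% of all genes passed and 1.32% did so as lower. Against CTRL, 1 of 5 passed in AngII+3W (Arntl), where 0.285% of all genes passed. In AngII against CTRL, 0 of 5 passed, where 5.1% of all genes did. In AngII+2W against AngII, 0 of 5 passed, where 0.163% of all genes did. In AngII+2W against CTRL and in AngII+3W against AngII+2W, 0 of 5 passed by edgeR, as did 0% of all genes. DESeq2 called 0 and 3 members there, beside 373 and 221 of all genes. By edgeR, 1838 and 1518 genes of all had an unadjusted p under 0.05 in these comparisons. Libraries of AngII+3W lay below those of CTRL without overlap for 3 of 5 members, where this held for 18.3% of all genes. The same was true against AngII for 4 of 5 members (24.2% of all genes) and against AngII+2W for 4 of 5 (19.7%). Libraries of AngII lay below those of CTRL without overlap for 1 of 5 members (Cry1, 24.9% of all genes) and above for 1 of 5 (Arntl, 24.4%), and those of AngII+2W lay below CTRL for 0 of 5 (22.2%). The median log2 fold change of the 5 members was -1.77 in AngII+3W against CTRL and -2.08 against AngII, where the median over all genes was 0.03 and 0.04.

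These calls depended on single libraries. In AngII+3W against AngII the number of members called was 0 without AngII replicate 2, 0 without AngII+3W replicate 1 and 0 when only both groups compared were fitted, and it was 1 (Arntl) without AngII replicate 1 or without either AngII+2W library. Against CTRL it was 3 without AngII+3W replicate 2, 2 without CTRL replicate 2 and 0 without any 1 of the other 6 libraries. The log2 fold changes of Arntl, Npas2 and Nfil3 in AngII+3W stayed at or below -1.53 under each alternative tried.

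Levels of different genes were compared per kilobase of exon. In CTRL the order was Nfil3 with a mean of 19.7 CPM per kb, Clock with 10.4, Npas2 with 4.56, Arntl with 4.12 and Cry1 with 3.3. Only the neighbours Npas2 and Arntl overlapped there. AngII kept the 2 highest and the lowest place, with Arntl at 5.12 and Npas2 at 4.90, which overlapped. In AngII+2W, Nfil3 (11.2) and Clock (11.2) overlapped at the top, and Arntl (5.19) and Npas2 (4.84) overlapped below them. The order in AngII+3W was Clock with 8.18 CPM per kb, Nfil3 with 3.08, Cry1 with 2.73, Arntl with 1.21 and Npas2 with 1.00. Clock stood apart from the rest there, Nfil3 and Cry1 overlapped, and Arntl and Npas2 overlapped below both. Cry1, the lowest of the 5 in every other group, was thus above both BMAL1 and NPAS2 transcripts in each AngII+3W library.

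**Figure D3:**
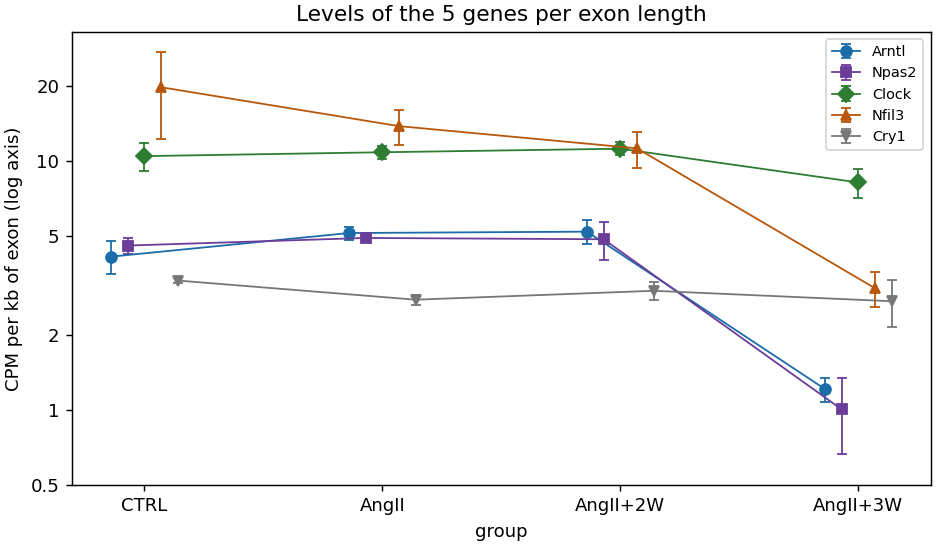
Levels of the 5 genes in CPM per kilobase of exon (log axis) in each group. Points are means of 2 libraries and bars run from the lower to the higher library. The lines of Arntl and Npas2 cross that of Cry1 between AngII+2W (5.19, 4.84 and 3.00) and AngII+3W (1.21, 1.00 and 2.73).

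The balance within the activator pair does not depend on how libraries are scaled when it is taken as a ratio of counts in the same library. For each 100 counts of Clock, Arntl had 22.1 and 21 counts in the CTRL pair. The ratio was 26 and 25.9 in AngII libraries, 26.7 and 24.1 in AngII+2W libraries, and in AngII+3W 6.39 and 10.4. Npas2 had 14.6 and 16.2 counts in the CTRL pair. AngII followed with 14.7 and 17, AngII+2W with 16.7 and 13.3, and AngII+3W with 2.5 and 6.62. Both ratios were lower in each AngII+3W library than in any of the 6 others. Nfil3 had 13.1 to 34.3 counts for each 100 of Clock in the first 6 libraries and 4.1 and 7.45 in AngII+3W. Cry1 had 6.15 to 8.98 in the first 6 libraries and 8.71 and 7.34 in AngII+3W, which lie within that range.

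The 33 other clock genes of the lists were tested, since they did not choose the members, although the lists themselves were written with earlier results known. Many of them belong to the same loop as the members (r of Arntl with Dbp was -0.954 over the 8 libraries). Their FDR values are therefore no independent support for the differences of the members. In the group of 12 genes that holds the repressor arm and the PAR bZIP factors, 9 were higher in AngII+3W than in AngII at an FDR of 0.05 by edgeR (0.285% of all genes were higher) and none was lower. They were Per2, Per3, Cry2, Nr1d2, Dbp, Tef, Hlf, Ciart and Bhlhe41. Dbp, the D-box activator that NFIL3 opposes, had the largest log2 fold change of the 9, 2.98 ± 0.297 (SE, FDR 0.0145), with 14.5 and 16.2 CPM in AngII against 104 and 139 in AngII+3W. Ciart, a repressor of the BMAL1 pair, followed with 2.48 ± 0.313 (FDR 0.0209) and Cry2, the paralog of Cry1, was lowest with 0.82 ± 0.148 (FDR 0.0445). The number of other clock genes called in this comparison was 10 in all, and it was 0 without either AngII library or with only both groups fitted, and 3 without AngII+3W replicate 1 or without either AngII+2W library.

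In AngII against CTRL, 2 of these 12 genes were lower past the threshold (2.2% of all genes were), Per2 with a log2 fold change of -1.60 ± 0.19 (SE, edgeR FDR 0.00886) and Nr1d1, the gene of REV-ERBα, with -0.87 ± 0.193 (FDR 0.0466). Nr1d1 did not pass without any 1 of the 6 CTRL, AngII and AngII+2W libraries, and Per2 did not pass without CTRL replicate 1 or without either AngII library. In AngII against CTRL, 10 of the 12, all lower, had an unadjusted edgeR p under 0.05 (20.2% of all genes did). DESeq2 called 7 of the 12 in that comparison, beside 1588 of all genes. By edgeR, 0 of the 12 passed in AngII+3W against CTRL, where 7 had an unadjusted p under 0.05 (12.5% of all genes did). DESeq2 called 6 there, beside 585 of all genes. For AngII+2W against CTRL the edgeR number was 0 as well, with 5 at an unadjusted p under 0.05 (10.7% of all genes). DESeq2 called 1 of the 12 there, beside 373 of all genes. For AngII+2W against AngII the edgeR number was 0, with 6 at an unadjusted p under 0.05 (15% of all genes). DESeq2 called 0 of the 12 there, beside 685 of all genes. With only both groups fitted 3 were called, beside 884 of all genes. For AngII+3W against AngII+2W the edgeR number was 0, with 10 at an unadjusted p under 0.05 (8.83% of all genes). DESeq2 called 8 of the 12 there, beside 221 of all genes.

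The activator paralog Arntl2 and the receptor genes Rora and Rorb passed in no comparison by edgeR. Arntl2, whose protein can pair with CLOCK in place of BMAL1, had 20.2 to 23.1 CPM in CTRL and 26.3 to 31.3 in AngII+3W, and its log2 fold change there was 0.41 ± 0.182 (SE, FDR 0.413). Of the 10 kinases, ubiquitin ligases and partners of the clock proteins, 0 passed in any comparison by edgeR or by DESeq2, and at most 1 had an unadjusted p under 0.05. Of 7 clock outputs, 1 passed by edgeR, while DESeq2 also called Usp2, a deubiquitinase gene, in AngII against CTRL and in 3 other comparisons. The output past the edgeR threshold was Leo1, a subunit of the PAF1 elongation complex, which was lower in AngII+3W (11.6 and 12.5 CPM) than in AngII (21.4 and 21.6 CPM), with a log2 fold change of -0.84 ± 0.141 (SE, FDR 0.0416). The call of Leo1 was lost when only both groups were fitted, and it depended on which single libraries were in the fit. Leo1 is also the gene whose window holds the TAGGTCA letters printed above. It was set beside the sites of Arntl and Nfil3 after its values were seen, and a link between these letters and levels was not tested. The window of Npas2, which was also lower in AngII+3W, held no such letters.

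**Figure D4:**
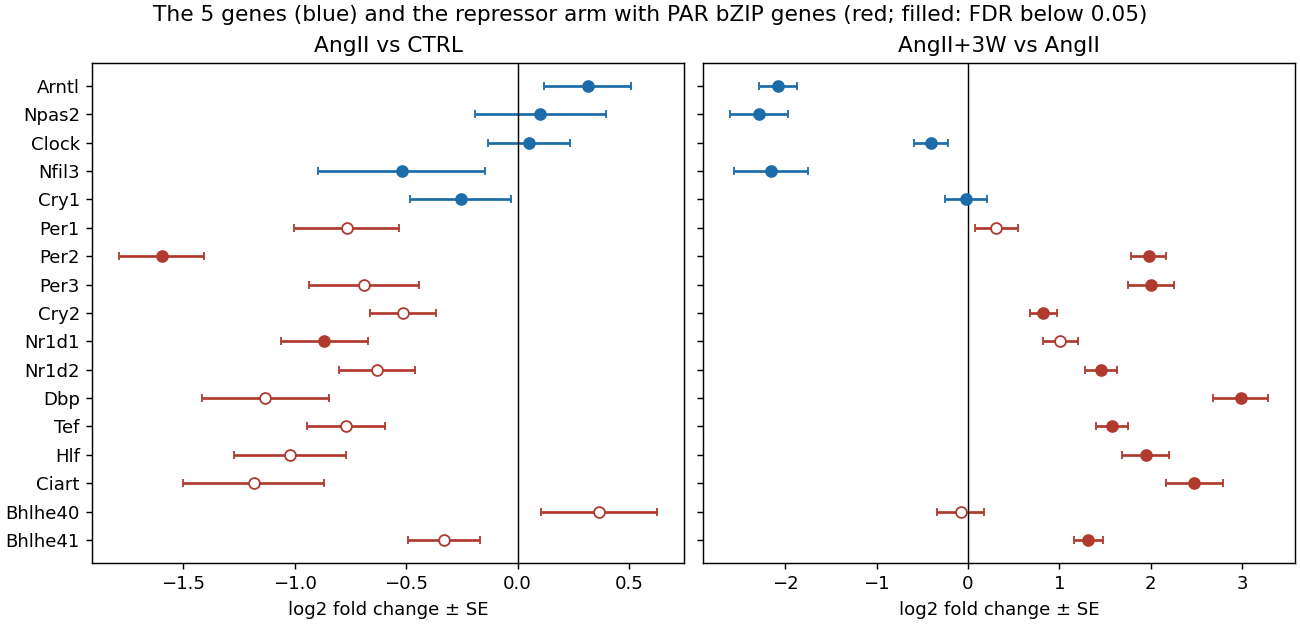
Log2 fold change (horizontal axes) with its standard error (bars) of the 5 genes (blue, no test) and of the 12 genes of the repressor arm and PAR bZIP group (red, filled where the FDR is below 0.05) in AngII against CTRL (left) and AngII+3W against AngII (right). The axes of both panels differ in range. On the right, 9 of 12 red points are filled and lie from 0.82 to 2.98, while Arntl, Npas2 and Nfil3 lie from -2.28 to -2.08.

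Arntl and Dbp were set against each other in every library on a log2 CPM scale, since they are textbook markers of opposite phases. The difference of Arntl minus Dbp was 0.26 and -0.51 for CTRL, 1.49 and 1.16 for AngII, 1.51 and 0.33 for AngII+2W, and -3.66 and -3.76 for AngII+3W. Both AngII+3W libraries lay more than any other on the Dbp side. Both AngII libraries lay above both CTRL libraries, as did both AngII+2W libraries, the lower of them by little (0.33 beside 0.26). In CTRL, AngII and AngII+2W the library with more Arntl had less Dbp, and in AngII+3W it had more. For Nr1d1, the other gene named above, Arntl minus Nr1d1 was -2.07 and -2.90 for CTRL and -1.15 and -1.45 for AngII. It was -1.61 and -1.95 for AngII+2W and -4.295 and -4.44 for AngII+3W. Nr1d1 itself overlapped between AngII+3W (161 and 222 CPM) and CTRL (150 and 196 CPM). Its log2 fold change there was 0.14 ± 0.191 (SE, edgeR FDR 0.802), and its r with Arntl was -0.654.

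**Figure D5:**
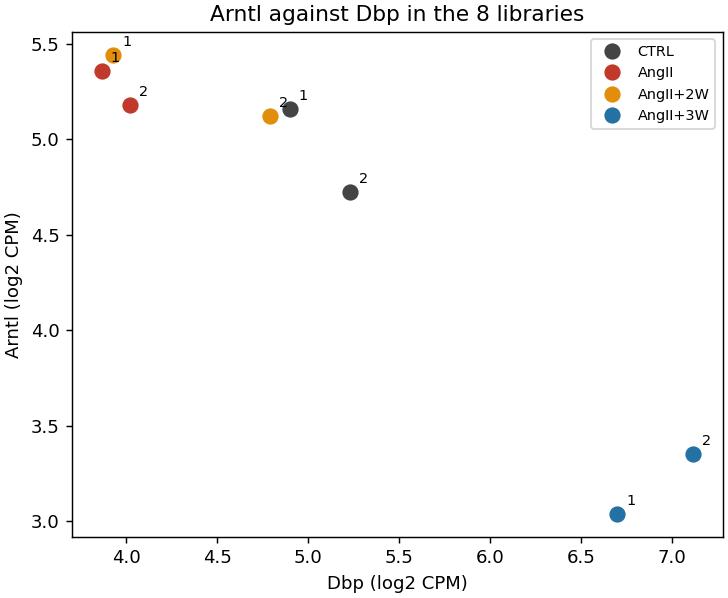
Arntl against Dbp in log2 CPM, 1 point per library with its replicate number. The 2 AngII+3W libraries lie at the lower right, at an Arntl level of 3.04 and 3.35, and the other 6 lie at the upper left, with Arntl from 4.72 to 5.44 and Dbp at most 5.23.

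Genes whose log2 CPM followed that of Arntl over the 8 libraries were ranked by Pearson's r among 1190 genes with a mean of at least 5 CPM and an SD of at least 0.5. These correlations are descriptions over libraries that share their groups, and AngII+3W holds the 2 libraries farthest from the median. The highest were Npas2 with r = 0.976 (Spearman's rho 0.905), S100a4 with 0.962 (rho 0.976), Cdkn1a with 0.951 (rho 0.833), Igfbp7 with 0.937 (rho 0.548) and Mrgprf with 0.931 (rho 0.833). Without the 2 AngII+3W libraries r was 0.721 for Npas2, 0.894 for S100a4, 0.453 for Cdkn1a, 0.05 for Igfbp7 and 0.311 for Mrgprf, so that most of the likeness of the last 3 rested on AngII+3W. Cdkn1a, which encodes the cell cycle inhibitor p21, had 49.3 to 84.5 CPM in the first 3 groups and 16.8 to 19.2 in AngII+3W. The lowest r were those of Slc5a6, a vitamin transporter, with -0.993 (rho -0.833), Bhlhe41 with -0.981 (rho -0.952), Dbp with -0.954 (rho -0.929), Per3 with -0.934 (rho -0.81) and Rasd1 with -0.92 (rho -0.571). Without AngII+3W they were -0.916, -0.916, -0.854, -0.674 and -0.293. Of the 5 genes most opposite to Arntl, Bhlhe41, Dbp and Per3 are in the repressor arm and PAR bZIP list. How many genes of that list were among the 1190 ranked was not counted, so nothing is read from this.

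The same ranking gave Igfbp7 (r = 0.985), Mrgprf (0.978) and Arntl (0.976) for Npas2, and Cdkn1a (0.961), Fosl2 (0.954) and Igfbp7 (0.94) for Nfil3. For Clock, Cdkn1a (0.864), Nnt (0.832) and Mthfd2 (0.825) were highest, and without the 2 libraries farthest from the median of Clock they were at 0.721, 0.461 and 0.795. For Cry1, Fras1 (0.842), Perp (0.801) and Krt19 (0.785) were highest. Without the 2 libraries farthest from the median of Cry1, Fras1 was at 0.49, Perp at 0.72 and Krt19 at -0.154, so that the likeness of Krt19 rested on those libraries. In the same way Igfbp7 was at 0.618 and Mrgprf at 0.787 with Npas2, and Cdkn1a at 0.862, Fosl2 at 0.814 and Igfbp7 at 0.679 with Nfil3. Between members, r with Arntl was 0.906 for Nfil3, 0.801 for Clock and 0.254 for Cry1. Without both AngII+3W libraries it was 0.171 for Nfil3, 0.878 for Clock and -0.27 for Cry1, so that Clock was the member that followed Arntl about as closely within the other 3 groups as over all 8 libraries.

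Sums of cell type markers differed between libraries, and in bulk tissue fewer cells of a type and less RNA per cell cannot be told apart. The 5 smooth muscle markers were above 3 counts in every library and summed to 6931 to 8895 CPM in CTRL, 1596 to 2039 in AngII, 3299 to 3666 in AngII+2W and 1604 to 3125 in AngII+3W. The 4 endothelial markers summed to 630 to 770 CPM in AngII+3W and to 718 to 901 in the other groups. The 4 fibroblast markers summed to 7606 to 12450 CPM in AngII, 1164 to 1876 in CTRL, 2585 to 3834 in AngII+2W and 1013 to 2715 in AngII+3W. For the 4 macrophage markers the sums were 223 to 347 CPM in AngII, 86.4 to 113 in CTRL, 126 to 139 in AngII+2W and 67.2 to 138 in AngII+3W. The 4 Schwann cell markers, at 106 to 113 CPM in AngII+3W and 37.7 to 74.6 in the other groups, were higher in AngII+3W than in all other libraries. Skeletal muscle markers summed to 2277 CPM in AngII+3W replicate 1 and to 9.78 in replicate 2, and to 3.97 to 73.2 elsewhere (Myh4 was at 0 in 3 of those libraries). Cardiac muscle markers summed to 5148 CPM in AngII+3W replicate 1 and to 314 in replicate 2, with 6.18 to 4477 elsewhere. Beside these sums, Arntl had 8.12 CPM in AngII+3W replicate 1 and 10.1 in replicate 2. Adipocyte markers (1955 to 3856 CPM) and lymphocyte markers (5.40 to 9.29 CPM) overlapped between AngII+3W and CTRL. The part of cell makeup in the levels of the 5 genes was not tested.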

How the data were processed

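RNA of mouse aorta was sequenced from 8 libraries, 2 per group, each of 2 pooled mice (16 mice). The authors depleted ribosomal RNA, estimated transcript abundance with Salmon on GRCm38.p6 and deposited expected counts per gene, which are whole numbers in the table, without normalization or filter. The submitters' processing notes also name FastQC, MultiQC and edgeR. Library totals were 18130441 to 21498200 counts, and 11469 of 35896 genes were at 0 throughout. At these totals 3 counts are 0.14 to 0.162 CPM. This depth covers counting error only.

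The members and gene lists were chosen with earlier results of these data known. Counts were fitted with edgeR 4.0.16 (R 4.3.3), using filterByExpr, TMM and the quasi-likelihood F test in its older form, with 1 coefficient per group over all 8 libraries (4 residual degrees of freedom) and 6 contrasts. P-values are two-sided and adjusted over 17182 genes. Standard errors are the absolute log2 fold change divided by the square root of F. The scripts were tested on simulated data. With 2 libraries on each side an exact permutation test reaches 0.33 at the lowest, so none was run. Named genes are the 5 members, list genes past FDR 0.05 or needed to read a count, and the genes most like each member (5 highest and 5 lowest r for Arntl, 3 highest for the others, prior count 2). Leo1's place beside the printed sites and Arntl2 were picked after their values were seen, and 1 gene of the lists is not reported here. Exon lengths and positions are from GENCODE, which holds 98.9% of the identifiers. Near-identical copies of the members were searched with BLAST among annotated transcripts, and 0 other genes matched. Alternatives were DESeq2 1.42.0, DESeq2's size factors, no filter beyond 1 count, only the 2 groups compared, a replicate block, leaving out each library and, chosen after the data were seen, library totals alone. Proteins and a genome were not used here.

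The AngII and AngII+3W replicate differences correlated at 0.401 over 15048 genes and the other pairs of groups from -0.027 to 0.257, and the labels tie no replicate number to a shared animal, litter or day, so the block is given below only as an alternative.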

Additional observations from a re-analysis of the deposited data

Results flagged for a closer look

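In the AngII and AngII+3W groups the Arntl libraries lay on opposite sides of CTRL. Both AngII libraries (40.9 and 36.2 CPM) were above both CTRL libraries (35.7 and 26.3 CPM) and both AngII+3W libraries (8.12 and 10.1 CPM) were below them, which is a log2 difference of -2.08 between both groups. This difference was not tested, since Arntl was chosen with these values known, and the lower AngII library (36.2 CPM) lay close to the higher CTRL library (35.7 CPM). The log2 fold change of AngII against CTRL was 0.32 ± 0.195 (SE), and 0.10 without CTRL replicate 2. Libraries of AngII lay above CTRL without overlap for 24.4% of all genes, and those of AngII+3W below CTRL for 18.3%.

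For 10 of the 33 other clock genes the effects of AngII+3W and AngII against CTRL were unequal in a direct contrast of both groups (edgeR quasi-likelihood test, Benjamini-Hochberg adjusted over 17182 genes). The log2 differences were 1.98 for Per2 (FDR 0.0145), 2.00 for Per3 (FDR 0.0209), 0.82 for Cry2 (FDR 0.0445), 1.46 for Nr1d2 (FDR 0.0206), 2.98 for Dbp (FDR 0.0145), 1.57 for Tef (FDR 0.0206), 1.95 for Hlf (FDR 0.0226), 2.48 for Ciart (FDR 0.0209) and 1.32 for Bhlhe41 (FDR 0.0209). Leo1 differed in the other direction, by -0.84 (FDR 0.0416). In each of the 10 genes the libraries of both groups did not overlap, and nothing is read from this. Libraries of AngII+3W lay below those of AngII without overlap for 24.2% of all genes, and the share above was not computed. None of the 10 passed without AngII replicate 1, without AngII replicate 2, or in a fit of only both groups.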

How the results depend on the processing

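The log2 fold changes of the members were compared with 420 values under the alternatives. Of these, 404 moved by less than the spread between replicates and 16 moved by more. A change of sign was counted only for fold changes past an FDR of 0.05 in the main fit, and 0 were counted. These all lay at -1.765 or lower, so that the count of 0 says little. Fold changes that were not called did change sign under some alternatives. For example, Clock in AngII against CTRL (0.052) did so under 2 of 14, with values from -0.127 to 0.245. None of these 14 values was counted as moved. Numbers of called genes moved far more, and the cause was not tested. They are given as members, other clock genes and all genes at an FDR of 0.05.

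Against CTRL, the AngII+3W group had 1 member, 0 other clock genes and 49 of all genes called by edgeR. With every gene of at least 1 count these were 3, 3 and 200, and with DESeq2 3, 6 and 585. With only the 2 groups compared, 0 members and 0 of all genes were called, with the replicate block 0 members and 4 of all genes, and with library totals alone 0 members and 1 of all genes. Leaving out 1 library gave 0 to 3 members, 0 to 3 other clock genes and 0 to 463 of all genes.

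Against AngII, 3 members, 10 other clock genes and 276 of all genes were called in AngII+3W. Only the 2 groups compared gave 0, 0 and 0, while all genes numbered 522 with every gene of at least 1 count, 968 with DESeq2 and 179 with library totals alone. Leaving out 1 library gave 0 to 3 members, 0 to 10 other clock genes and 3 to 1005 of all genes.

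In AngII+3W against AngII+2W, 0, 0 and 0 were called. With every gene of at least 1 count these were 2, 3 and 11, with DESeq2 3, 9 and 221, and with the replicate block 1 other clock gene and 2 of all genes. Leaving out 1 library gave 0 to 2 members, 0 to 7 other clock genes and 0 to 432 of all genes.

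In AngII against CTRL, 0 members, 2 other clock genes and 877 of all genes were called, and 0 members under each alternative. Other clock genes numbered 1 with DESeq2's size factors in edgeR or library totals alone, 5 with every gene of at least 1 count, 8 with DESeq2, 6 with only the 2 groups compared and 5 with the replicate block. DESeq2 called 1588 of all genes. Leaving out 1 library gave 0 to 7 other clock genes and 0 to 1504 of all genes.

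In AngII+2W against CTRL 0, 0 and 0 were called, with 5 of all genes when every gene of at least 1 count was kept, and 3 other clock genes and 373 of all genes with DESeq2. Leaving out 1 library gave 0 to 2 other clock genes and 0 to 275 of all genes. In AngII+2W against AngII, 0 members, 0 other clock genes and 28 of all genes were called. With every gene of at least 1 count 1 other clock gene and 242 of all genes were, with DESeq2 1 and 685, with only the 2 groups compared 4 and 884, and with library totals alone 18 of all genes. Leaving out 1 library gave 0 to 262 of all genes.

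The replicate block moved no other count by over 1.5 times. Same-numbered libraries come from different mice, so that it does not pair animals. Arntl, Npas2 and Nfil3 had 59 to 188 counts in AngII+3W, with 2 libraries per group. Counting error and the spread between libraries both enter the precision there, and their parts were not separated.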

Other observations

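Nnt, a mitochondrial transhydrogenase gene known to be partly deleted in the C57BL/6J substrain, was among the genes most like Clock (r = 0.832 over 8 libraries, 0.461 without the 2 libraries farthest from the median). Its counts differed widely between libraries of the same group. The CTRL libraries had 313 and 34 counts, the AngII libraries 104 and 92, the AngII+2W libraries 157 and 104, and the AngII+3W libraries 237 and 3. The labels give the strain as C57BL6, the methods name the J substrain, and each library pools 2 mice.

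The genes most like Cry1 also varied most within AngII+3W. Between replicate 1 and replicate 2 of that group, Fras1 had 40.7 and 7.04 CPM, Perp 19.1 and 4.51 CPM, and Krt19 8.55 and 0.645 CPM, beside 11.1 and 7.15 CPM for Cry1. Replicate 1 is the library with the highest sums of skeletal and cardiac muscle markers described above. For cardiac markers CTRL replicate 1 came near it (4477 beside 5148 CPM). The part of that library's makeup in the likeness to Cry1 was not tested.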
